A study of Mus musculus with 2 samples.

Results

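The 234 genes described here are the well-expressed long noncoding RNAs (lncRNAs) of a mouse macrophage-like line under mechanical load. They were selected on their counts: they are the genes of the deposited gene table with the biotype lncRNA and at least 100 estimated counts over both libraries, leaving out Neat1 and Malat1, and they were 234 of 9949 lncRNA genes and of 55414 genes in all. The cells were RAW246.7, as the submitters spell it. They were either loaded at 20% elongation strain for 24 h (stretched) or kept for 24 h under what the labels call normal elongation strain, with no value given (control). The 234 genes lay on 21 chromosomes, with 19 on chromosome 17 and 18 each on chromosomes 5 and 11. Each group had 1 library of poly(A)-selected, strand-marked RNA, so variation between cultures was not measured and no test was run. The stretched library held 13391645 estimated counts and the control library 14769100. The labels name the tissue as synovial membrane, whereas the cells they name are a cultured line. The 10 macrophage marker genes summed to 3921 FPKM (fragments per kilobase of transcript, scaled to library depth) in the stretched library and 2734 FPKM in the control library, while the 6 fibroblast or synoviocyte markers summed to 0.200 FPKM in the stretched library and 0.254 FPKM in the control library. Of the 10 macrophage markers 7 had a higher FPKM in the stretched library and 3 (Ptprc, Spi1 and Mrc1) a lower one. Most of the gap in the sum was in the lysozyme gene Lyz2, with 2289 FPKM in stretched and 1320 FPKM in control, and the other 9 summed to 1632 FPKM in stretched and 1414 FPKM in control. The part of these marker differences in the results below was not tested.

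A lncRNA is a transcript without a long open reading frame that is often spliced and polyadenylated like a messenger RNA. Some lncRNAs act in the nucleus on neighbouring genes or on whole chromosomes, some act in the cytoplasm by binding proteins or microRNAs, and some serve mainly as precursors from whose introns or exons small RNAs are cut. Many start within or close to a protein-coding gene, as antisense transcripts or as divergent transcripts of a shared promoter. In macrophages several lncRNAs are known as parts of the inflammatory response.

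The microRNA host genes among the 234 show what such precursors carry. Of these genes, Mir17hg gives rise to the miR-17 to miR-92 cluster, Mir22hg to miR-22, Dleu2 to miR-15a and miR-16, and Mir99ahg to miR-99a, let-7c and miR-125b. The main mature sequences are shown because the host transcripts are what was measured here, not the microRNAs, and the seed (bases 2 to 8, in capitals) sets which messages each one pairs with. Sequences are from RefSeq (GRCm38.p6), and each lies inside its host on the host's strand in that build. Within Mir17hg, miR-17-5p and miR-20a-5p share 1 seed, and miR-19a-3p and miR-19b-3p share another; within Dleu2, miR-15a-5p and miR-16-5p share theirs.
miR-17-5p: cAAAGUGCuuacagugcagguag
miR-20a-5p: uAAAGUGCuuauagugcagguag
miR-18a-5p: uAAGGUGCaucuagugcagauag
miR-19a-3p: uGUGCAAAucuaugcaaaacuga
miR-19b-3p: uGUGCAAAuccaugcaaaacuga
miR-92a-3p: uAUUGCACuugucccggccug
miR-22-3p: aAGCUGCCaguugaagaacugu
miR-15a-5p: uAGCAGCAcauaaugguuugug
miR-16-5p: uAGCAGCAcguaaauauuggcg
miR-99a-5p: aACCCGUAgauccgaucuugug
let-7c-5p: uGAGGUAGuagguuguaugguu
miR-125b-5p: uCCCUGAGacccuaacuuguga

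Start regions of 4 lncRNA genes described below are shown next. They are Zfas1 and Map2k3os, which start beside a coding gene, and Gm36486 and Gm10419, which had the largest differences between the libraries. Each runs from 250 bases before the annotated start through the first 50 bases of the gene, which are in capitals (RefSeq, GRCm38.p6). In that build the start of Znfx1 lies 81 bases from that of Zfas1 on the opposite strand, and the start of Map2k3 lies 187 bases from that of Map2k3os.
Zfas1 (chr2:167062684-167062983, plus strand): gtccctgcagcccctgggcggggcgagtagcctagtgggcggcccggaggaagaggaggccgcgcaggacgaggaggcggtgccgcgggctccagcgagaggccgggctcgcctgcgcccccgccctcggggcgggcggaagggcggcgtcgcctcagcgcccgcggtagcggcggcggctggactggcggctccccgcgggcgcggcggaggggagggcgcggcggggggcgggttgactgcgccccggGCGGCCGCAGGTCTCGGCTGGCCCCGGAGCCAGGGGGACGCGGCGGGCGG
Map2k3os (chr11:60931818-60932117, minus strand): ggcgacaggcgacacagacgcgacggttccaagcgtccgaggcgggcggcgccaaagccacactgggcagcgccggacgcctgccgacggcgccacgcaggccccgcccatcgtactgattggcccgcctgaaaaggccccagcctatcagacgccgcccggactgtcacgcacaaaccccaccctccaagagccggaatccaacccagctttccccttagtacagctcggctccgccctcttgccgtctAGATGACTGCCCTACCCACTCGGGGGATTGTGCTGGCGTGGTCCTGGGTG
Gm36486 (chr17:29437530-29437829, minus strand): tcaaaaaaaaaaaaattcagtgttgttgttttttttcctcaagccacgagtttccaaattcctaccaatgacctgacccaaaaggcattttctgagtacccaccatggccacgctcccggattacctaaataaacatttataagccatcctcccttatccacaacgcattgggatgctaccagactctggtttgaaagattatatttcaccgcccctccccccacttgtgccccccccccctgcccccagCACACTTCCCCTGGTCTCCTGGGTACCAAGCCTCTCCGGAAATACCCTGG
Gm10419 (chr5:108367687-108367986, plus strand): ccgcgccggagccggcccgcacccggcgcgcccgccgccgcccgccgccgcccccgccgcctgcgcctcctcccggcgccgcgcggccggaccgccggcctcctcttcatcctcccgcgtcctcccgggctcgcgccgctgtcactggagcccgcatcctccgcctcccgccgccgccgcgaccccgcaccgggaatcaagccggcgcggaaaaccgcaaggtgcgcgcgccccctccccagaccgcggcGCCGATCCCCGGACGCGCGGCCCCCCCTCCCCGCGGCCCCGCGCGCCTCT

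These windows differed in base composition. CpG dinucleotides numbered 47 at Zfas1, 30 at Map2k3os, 60 at Gm10419 and 6 at Gm36486. A RefSeq start region was found for 127 of the 234 genes, with a median of 15 CpG per 300 bases, against a median of 7 over all 32851 start regions in the table. That background was not limited by counts, whereas the 127 genes all had at least 100. The part of this count threshold in the gap was not tested. The 22 of the 127 genes that lie head to head with a coding gene (starts within 1000 bases, opposite strands, no overlap) had a median of 30 CpG, and the 57 with neither such a neighbour nor an overlap had a median of 11.

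Levels of the lncRNAs were low beside those of coding genes. The median was 3.94 FPKM in the stretched library and 3.37 FPKM in the control library, against 14.7 FPKM in stretched and 14.2 FPKM in control for the 10010 protein-coding genes with at least 100 counts. Of the 234 genes, 118 had 100 or more but under 200 counts over both libraries, 40 had 200 or more but under 300, 53 had 300 or more but under 1000, 21 had 1000 or more but under 10000, and 2 had 10000 or more. Together they took 0.673% of all counts in the stretched library (Wilson 95% interval 0.669 to 0.678%) and 0.604% in the control library (0.600 to 0.608%). These and all other intervals cover counting error only.

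A pair of genes, Gm46620 and Gm42047, held 50.4% of the lncRNA counts in the stretched library and 47.1% in the control library. Without them the share of the other lncRNAs was 0.334% in stretched and 0.319% in control. Gm46620 (chromosome 18) had 34681 counts and 1273 FPKM in the stretched library, against 30783 counts and 1005 FPKM in the control library. Gm42047 (chromosome 8) had 10761 counts and 161 FPKM in stretched and 11287 counts and 153 FPKM in control. Its level was thus nearly the same in both libraries, while the gap in Gm46620 makes up most of the difference in the summed share. Neither value can be credited to its gene alone, because 98.9% of the longest Gm46620 transcript has a copy at 95% identity or more in Gm42427, itself at 5348 counts in stretched and 4929 in control, and 64.2% of Gm42047 has one in Gm48362. In all, 16 of the 234 genes had such a copy over at least 50% of their longest transcript, among them Norad, Gm7292, Erdr1 and Gm21887.

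The next most abundant lncRNAs by FPKM were largely familiar ones. Gas5, a snoRNA host and growth-arrest transcript, had 94.4 FPKM in stretched and 112 FPKM in control. AI662270 had 72.6 FPKM in stretched and 65.8 FPKM in control. Snhg1, another snoRNA host, had 37.4 FPKM in stretched and 58.0 FPKM in control. Erdr1 had 47.3 FPKM in stretched and 40.8 FPKM in control, and Norad, which binds Pumilio proteins, had 35.2 FPKM in stretched and 34.4 FPKM in control. Of these 5, Snhg1 had the widest gap between the libraries. Gm12940, which overlaps the splicing factor gene Sfpq on the same strand, had 35.5 FPKM in stretched and 53.7 FPKM in control. 2410006H16Rik, with snoRNA genes inside, had 35.6 FPKM in stretched and 47.2 FPKM in control, and 1110038B12Rik, also with snoRNA genes inside, had 51.2 FPKM in stretched and 31.1 FPKM in control.

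The genes closest to the count threshold differed little between the libraries, with 1 exception. Just inside it, Gm9776 had 44 counts in stretched and 57 in control, Gm7967 had 45 in stretched and 56 in control, and 0610038B21Rik had 46 in stretched and 56 in control. Just outside it, 6720427I07Rik had 56 counts in stretched and 43 in control, and 4731419I09Rik had 40 in stretched and 59 in control. The third gene outside, Gm42659, had 24 in stretched and 74 in control, a gap wider than in any of the others.

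Most of the lncRNAs had similar levels in the stretched and the control library. The log2 difference (stretched over control, after TMM scaling) had a median of 0.04, with quartiles of -0.22 and 0.36, and it was above 0 for 122 genes and below 0 for 112. Over the 10545 genes of all types with at least 100 counts the median was -0.01. A total of 179 of the 234 differed by less than 1.5-fold. The size rule asked for at least 20 counts over both libraries, a difference of at least 2-fold and a 95% counting interval that excluded equal levels. It was met by 11 lncRNAs that were higher in the stretched library (4.70%) and 5 that were lower (2.14%).

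That share has to be read against depth. Of all genes with at least 20 counts, 3.12% were higher and 1.94% lower by the same rule, and of all genes with at least 100 counts, 1.73% were higher and 0.626% lower. Of the protein-coding genes with at least 100 counts it was 1.68% higher and 0.539% lower. All 16 lncRNAs that met the rule had under 300 counts, and among the 158 lncRNAs under 300 counts 6.96% were higher and 3.16% lower. Of the 1192 protein-coding genes with 100 or more but under 300 counts, 5.45% were higher and 2.52% lower. The lncRNA share was therefore near that of equally counted coding genes. None of the 76 lncRNAs with 300 or more counts met the rule on TMM-scaled counts, against 1.17% of coding genes higher and 0.272% lower at that depth. Cep83os came closest, at -0.99, just short of 2-fold. With DESeq2 size factors in place of TMM, 6 of the 234 lncRNAs were lower instead of 5, and the added gene was Cep83os. The absence of calls among the 76 therefore depends on the scaling. On the log2(FPKM + 0.1) scale 2 of the 76 passed the rule, Chaserr at -1.13 and Snhg20 at 1.06.

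**Figure D1:**
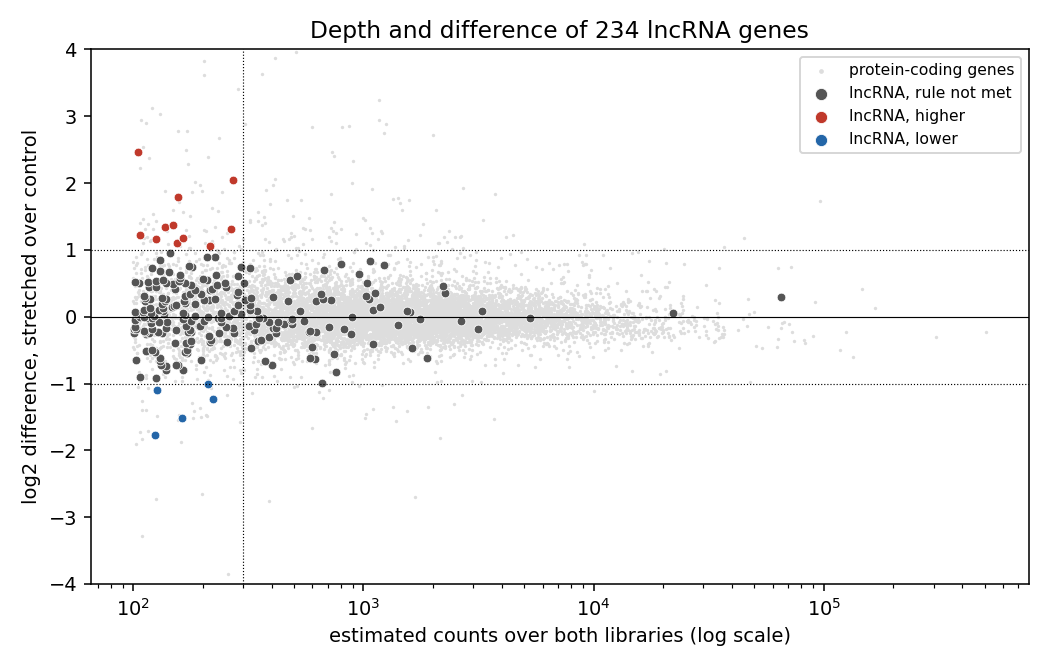
Each point is a gene, with its estimated counts over both libraries on a log scale (horizontal) and its log2 difference, stretched over control (vertical); grey points are protein-coding genes with 100 or more counts, of which 2 lie outside the vertical range. The 11 higher (red) and 5 lower (blue) lncRNAs all lie left of the dotted line at 300 counts, and the other 218 (dark grey) do not meet the rule.

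The largest difference was in Gm36486, a predicted gene on chromosome 17 (GRCm39, 29649772 to 29656422, minus strand) that overlaps no coding gene. It had 88 counts in the stretched library and 17 in the control library, or 1.65 FPKM in stretched and 0.331 FPKM in control, a 5.65-fold higher level in stretched (log2 difference 2.46, interval 1.74 to 3.34). Gm10419 (chromosome 5, 108515635 to 108526105, plus strand) had 214 counts in stretched and 56 in control, or 5.17 FPKM in stretched and 1.14 FPKM in control. Its log2 difference was 2.05 (interval 1.63 to 2.51), and it rests on more counts than any other of the 11. The first 154 bases of Gm10419 overlap Gm42517, a coding model on the other strand with 21 counts in stretched and 12 in control.

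Other lncRNAs with a higher level in the stretched library lay clear of coding genes. 4930471E19Rik (chromosome 10) had 105 counts in stretched and 44 in control (log2 difference 1.37, interval 0.86 to 1.92). Most of that gap was in its 1514-base transcript, with 55 counts in stretched and 10 in control, while its 737-base transcript had 50 in stretched and 34 in control. E330020D12Rik (chromosome 1) had 103 counts in stretched and 52 in control (1.10, interval 0.62 to 1.62). 1700001L05Rik (chromosome 15) had 96 counts in stretched and 41 in control (1.34, interval 0.81 to 1.92), but its FPKM values, 1.85 in stretched and 1.16 in control, were closer together.

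Antisense and divergent lncRNAs made up most of the rest of the higher group. Map2k3os (chromosome 11, 60811743 to 60822693, minus strand), divergent from the gene of the kinase that activates p38, had 73 counts in stretched and 34 in control (log2 difference 1.22, interval 0.62 to 1.86). Map2k3 itself had 1168 counts in stretched and 938 in control (0.44, interval 0.32 to 0.57), so both genes of the pair were higher in the stretched library and the lncRNA had the wider, less precise gap. AW046200, whose first 1276 bases overlap the start of Galnt7, an O-glycosylation enzyme gene, had 111 counts in stretched and 53 in control (1.19). Galnt7 had 4883 counts in stretched and 4768 in control (0.16).

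Gm30042 lies wholly within Dagla, the gene of a diacylglycerol lipase, on the other strand. It had 85 counts in stretched and 41 in control (log2 difference 1.17), and Dagla had 29 in stretched and 17 in control (0.88, interval -0.02 to 1.85). 9330151L19Rik overlaps the start of Dnaaf2, a dynein assembly factor gene, and had 142 counts in stretched and 74 in control (1.06), while Dnaaf2 had 233 in stretched and 245 in control (0.05). A further coding model across it, Gm49384, was listed at 0 in both libraries. On its other side, with starts 107 bases apart, the coding model Gm49383 went the other way, with 47 counts in stretched and 137 in control (-1.41, interval -1.93 to -0.93).

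Of the 11 higher lncRNAs, 2 overlap coding genes on their own strand. Gm42890 (chromosome 3) overlaps Wdr77, a methylosome gene, and Ovgp1, an oviductal glycoprotein gene, and had 119 counts in stretched and 37 in control (log2 difference 1.80). Wdr77 had 2412 counts in stretched and 2538 in control, and Ovgp1 had 51 in stretched and 66 in control. On the other strand, Atp5pb, an ATP synthase subunit gene, overlaps it by 597 bases and had 5110 counts in stretched and 4974 in control (0.16). The locus as a whole, with all genes that overlap Gm42890 on its strand, differed by 0.09. Gm44597 (chromosome 6) overlaps Ing4, the gene of a histone acetyltransferase complex subunit, and Acrbp, an acrosin-binding protein gene, and had 185 counts in stretched and 81 in control (1.31). Ing4 had 586 counts in stretched and 621 in control, Acrbp had 36 in stretched and 51 in control, and the locus differed by 0.23. Both locus sums differed by less than 1.5-fold.

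The 5 lower lncRNAs were all predicted genes or cDNA clones. Gm42893 (chromosome 3, 116422822 to 116424633, minus strand) had 26 counts in stretched and 98 in control, or 1.15 FPKM in stretched and 3.97 FPKM in control, a 3.45-fold lower level in stretched (log2 difference -1.77, interval -2.47 to -1.15). It lies wholly within Sass6, the gene of a centriole assembly protein, on the other strand. Sass6 had 1601 counts in stretched and 947 in control (0.88, interval 0.77 to 1.00), so the antisense lncRNA and its coding gene differed in opposite directions. Gm50322 (chromosome 19), which overlaps no coding gene, had 39 counts in stretched and 123 in control (log2 difference -1.52, a 2.89-fold lower level in stretched).

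9830144P21Rik, antisense to the phosphate transporter gene Slc20a1, had 38 counts in stretched and 89 in control (log2 difference -1.09). Slc20a1 had 2254 counts in stretched and 2392 in control (0.04). Gm42664 lies inside Ptbp2, a splicing regulator gene, on the same strand, and had 62 counts in stretched and 160 in control (-1.24). Ptbp2 had 515 counts in stretched and 844 in control (-0.59), and both were lower in the stretched library. Gm36995 on chromosome X overlaps Ppp1r3f and Ccdc22 on its own strand and had 66 counts in stretched and 146 in control (-1.01), while its locus as a whole differed by 0.02. Ccdc22, an endosomal sorting gene, had 1322 counts in stretched and 1352 in control, and Ppp1r3f had 14 in stretched and 10 in control. On the other strand lies Foxp3, the regulatory T cell transcription factor gene, with 4 counts in stretched and 7 in control.

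**Figure D2:**
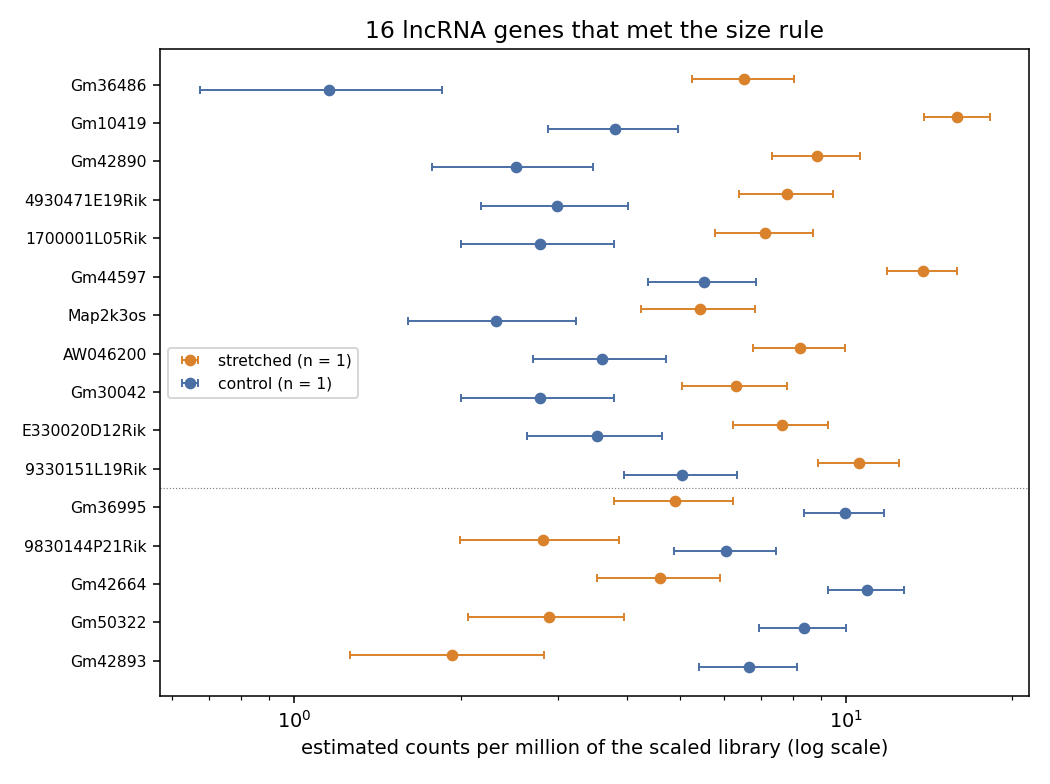
Estimated counts as CPM of the TMM-scaled library (log scale) for the 16 lncRNAs that met the size rule, stretched (orange) and control (blue), 1 library each, with exact Poisson 95% intervals. Above the dotted line the 11 higher lncRNAs run down from Gm36486, with 6.54 CPM in stretched and 1.16 CPM in control, and below it are the 5 lower ones, ending with Gm42893, with 1.93 CPM in stretched and 6.67 CPM in control.

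The authors' deposited table lists an adjusted p below 0.05 for 14 of the 234 lncRNAs as higher and for 6 as lower. It does so for 526 of 23250 genes in all. At most 10545 of those 23250 genes had the 100 counts that each of the 234 reached, so the shares are not at equal depth. With 1 library per group the authors' p-values cannot rest on a measured spread between cultures.

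The best counted lncRNAs show smaller but more precise differences. Of the 76 with 300 or more counts, 14 differed by at least 1.5-fold, 7 higher and 7 lower, or 18.4%. Among the 8818 protein-coding genes with 300 or more counts it was 4.81%, with 3.42% higher and 1.38% lower. The coding genes were counted more deeply, with a median of 1549 counts against 619. Among the 53 lncRNAs with 300 or more but under 1000 counts (median 479 counts), 5 were higher and 6 lower, or 20.8%. In that range 7.59% of 2871 coding genes (median 609 counts) differed so, 5.33% higher and 2.26% lower. Among the 23 lncRNAs with 1000 or more counts, 2 were higher and 1 lower, or 13.0%, against 3.46% of 5947 coding genes, 2.51% higher and 0.958% lower. These 14 were singled out after their values were seen.

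Cep83os (chromosome 10), divergent from the centriolar gene Cep83 with starts 78 bases apart, had 208 counts in the stretched library and 451 in the control library (log2 difference -0.99, interval -1.23 to -0.75). Cep83 had 1038 counts in stretched and 1447 in control (-0.35, interval -0.47 to -0.24), so both were lower in the stretched library. Chaserr, which in mouse restrains the expression of its neighbour Chd2, had 259 counts in stretched and 504 in control (-0.83, interval -1.06 to -0.62). Chd2, a chromatin remodeller gene, had 1262 counts in stretched and 1359 in control (0.02, interval -0.09 to 0.13), and no difference beyond counting error was seen there. The 2824-base transcript of Chaserr held most of the gap, with 156 counts in stretched and 395 in control, while its 5140-base transcript had 100 in stretched and 83 in control. Chaserr overlaps Chd2 on the same strand by 2030 bases, and its locus sum differed by -0.17. On the log2(FPKM + 1) scale Chaserr differed by -1.02.

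On the higher side, 4632404H12Rik (chromosome 3) had 665 counts in stretched and 407 in control (log2 difference 0.83, interval 0.65 to 1.02). It is divergent from Ube2q1, a ubiquitin-conjugating enzyme gene with 2962 counts in stretched and 3414 in control (-0.08). 1110038B12Rik had 490 counts in stretched and 309 in control (0.79, interval 0.58 to 1.00). Gm20427, which overlaps the zinc transporter gene Slc39a7 on the same strand, had 748 counts in stretched and 479 in control (0.77), while the whole locus differed by 0.34. F730043M19Rik, divergent from Atxn7l1, had 565 counts in stretched and 395 in control (0.64), and Atxn7l1 had 706 in stretched and 784 in control (-0.03).

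By position against protein-coding genes, 27 of the 234 lncRNAs overlapped one on the same strand, 87 overlapped one on the opposite strand only, 24 lay head to head with one, and 96 did none of these. The median log2 difference was -0.17 for same-strand overlap, 0.07 for opposite-strand overlap, -0.00 for head-to-head genes and 0.07 for the rest. Of the same-strand genes 18 of 27 were below 0, and of the opposite-strand genes 39 of 87 were. The size rule was met by 2 higher and 2 lower in the first class, 4 and 2 in the second, 1 and 0 in the third and 4 and 1 in the last. Counts of same-strand overlaps depend on how the counting split coverage between the genes, which cannot be checked from these tables. The strand setting of the counting was not given, so whether opposite-strand lncRNAs hold reads of the coding gene cannot be checked either.

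**Figure D3:**
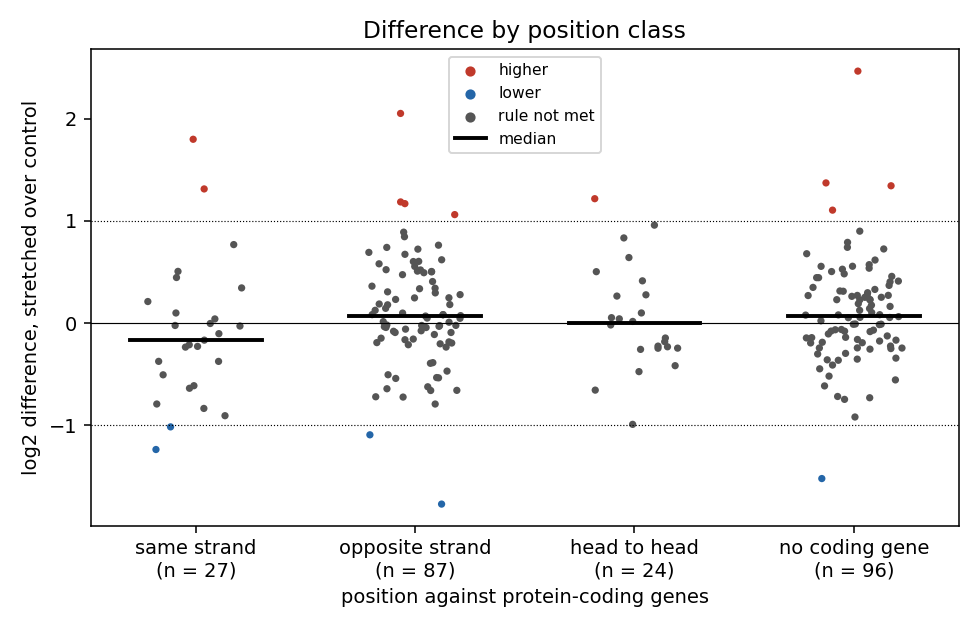
Log2 difference, stretched over control, of each of the 234 lncRNAs by its position against protein-coding genes; black bars are medians, red and blue points met the size rule, and dotted lines mark 2-fold. The same-strand class has the lowest median (-0.17) and the other 3 classes have medians between -0.00 and 0.07.

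Across pairs, the lncRNA and its coding neighbour differed in the same direction in 93 of 172 pairs. Over 103 opposite-strand pairs whose coding gene had at least 20 counts, Pearson's r of the 2 log2 differences was 0.17 and Spearman's rho 0.19, with the same sign in 55 pairs. Over 33 same-strand pairs r was 0.03 and rho 0.10, with the same sign in 20, and over 36 head-to-head pairs r was -0.03 and rho 0.04, with the same sign in 18. These are descriptions across gene pairs from the same 2 libraries, and some lncRNAs stand in several pairs. In no pair did both genes meet the size rule in the same direction.

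In 4 of the 172 pairs the coding neighbour met the rule as higher and in 4 as lower, 2.33% each way, against 3.12% higher and 1.94% lower over all genes with at least 20 counts. Znfx1 had the most counts among these neighbours. Zfas1, a snoRNA host, had 261 counts in stretched and 269 in control (log2 difference 0.08), and Znfx1, an interferon-inducible helicase gene that senses viral RNA, had 1760 in stretched and 945 in control (1.02, interval 0.91 to 1.14). The genes overlap by 82 bases at their starts. The CpG-rich window shown above for Zfas1 ends 50 bases into the gene, so it holds only part of that overlap. Ceacam1, a cell adhesion gene antisense to 4732471J01Rik, likewise met the rule with 111 counts in stretched and 55 in control (1.13), while the lncRNA had 78 in stretched and 87 in control (-0.03). Tagln, an actin-binding protein gene, had 8 counts in stretched and 25 in control, and Gm48529 on its other strand had 56 in stretched and 101 in control (-0.72).

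**Figure D4:**
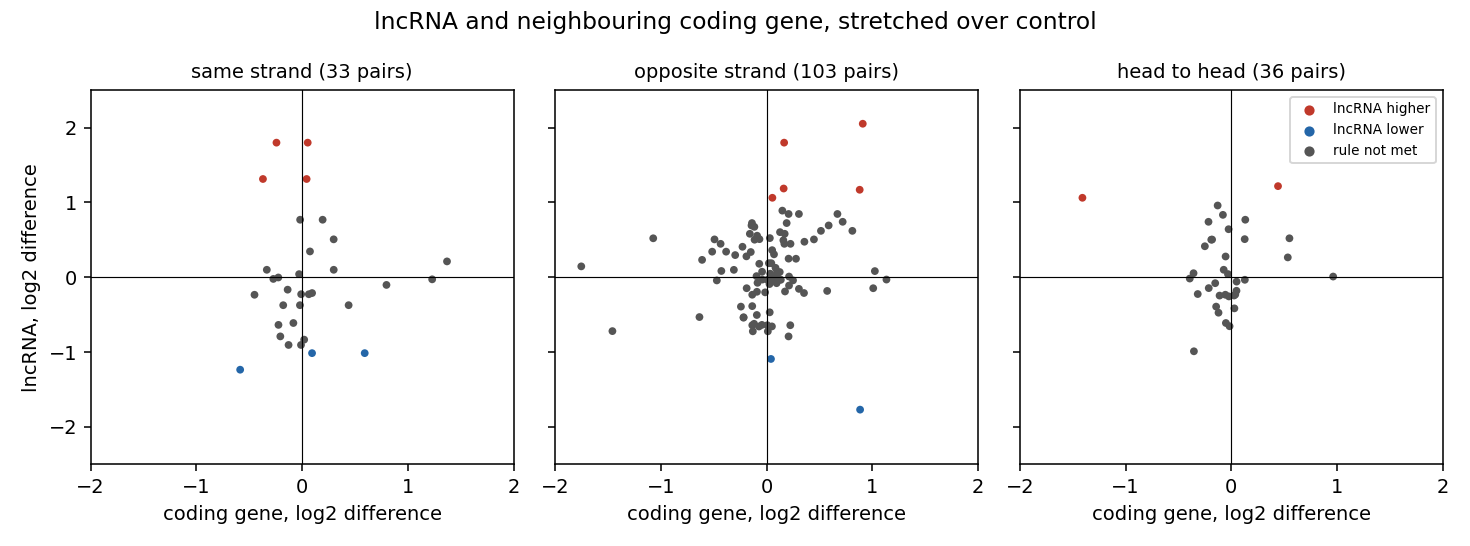
Log2 difference, stretched over control, of each coding gene with 20 or more counts (horizontal) and of its lncRNA neighbour (vertical), for 33 same-strand, 103 opposite-strand and 36 head-to-head pairs; red and blue mark lncRNAs that met the size rule. The points scatter around 0 in all 3 panels, with Pearson's r of 0.03, 0.17 and -0.03.

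Introns of host genes of small nucleolar RNAs (snoRNAs) release the guides of ribosomal RNA modification. From a list of such hosts, 11 were among the 234, with a median log2 difference of -0.19. Of these 11 listed hosts 8 were below 0, and none met the size rule on counts. Snhg17 had 705 counts in stretched and 1177 in control (-0.61, interval -0.75 to -0.48). Snhg15 had 285 in stretched and 457 in control (-0.55), and Snhg1 had 648 in stretched and 982 in control (-0.47, interval -0.62 to -0.33). These 3 and Snhg12, with 145 in stretched and 203 in control (-0.36), had intervals wholly below 0, as did Gas5 with 1402 in stretched and 1745 in control (-0.19). The share of all genes with an interval clear of 0 was not computed, so no trait of snoRNA hosts is read from these intervals. Snhg5 had 255 in stretched and 325 in control (-0.22, interval -0.47 to 0.02).

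Other hosts had near-equal counts. Snhg4 had 231 counts in stretched and 257 in control, Snhg16 had 174 in stretched and 193 in control, and Snhg6 had 169 in stretched and 174 in control. Dancr had 58 counts in stretched and 61 in control, but 3.18 FPKM in stretched and 1.54 FPKM in control, as its 575-base transcript had 17 counts in stretched and 1 in control. Of the 11, Snhg20 was the one with an interval wholly above 0, with 275 counts in stretched and 204 in control (log2 difference 0.56, interval 0.29 to 0.82). On the log2(FPKM + 0.1) scale it differed by 1.06, past 2-fold. Its gap was in its 600-base transcript, with 110 counts in stretched and 37 in control, while its 2153-base transcript had 163 in stretched and 166 in control. Over the 18 lncRNAs that hold an annotated snoRNA gene on their strand, the list aside, the median was -0.11. Of these 18, 11 were below 0 and 7 above, and the largest difference was a higher one, 0.79 in 1110038B12Rik, which is not on the list. Over the 206 with neither a snoRNA nor a miRNA gene inside, the median was 0.05. Snhg1 lies head to head with Slc3a2, an amino acid transporter subunit gene, which had 4886 counts in stretched and 5796 in control (-0.12).

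The miRNA hosts whose products are printed above went different ways. Mir17hg, the precursor of the growth-promoting miR-17 to miR-92 cluster, had 447 counts in stretched and 648 in control (log2 difference -0.41, interval -0.59 to -0.23). Mir99ahg had 106 in stretched and 68 in control (0.76, interval 0.31 to 1.23). Dleu2 had 323 in stretched and 300 in control (0.23, interval 0.00 to 0.46), and Mir22hg had 157 in stretched and 184 in control (-0.10, interval -0.42 to 0.21). None met the size rule. The listed hosts of 2 further microRNAs were too low to be among the 234 but did meet it: Mir155hg had 23 counts in stretched and 8 in control (1.59, interval 0.44 to 3.02), and Mir142hg had 28 in stretched and 13 in control (1.20, interval 0.24 to 2.30). Of the 506 lncRNA genes with 20 or more but under 100 counts, 12.3% were higher and 6.52% lower by this rule, so calls at that depth were common.

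**Figure D5:**
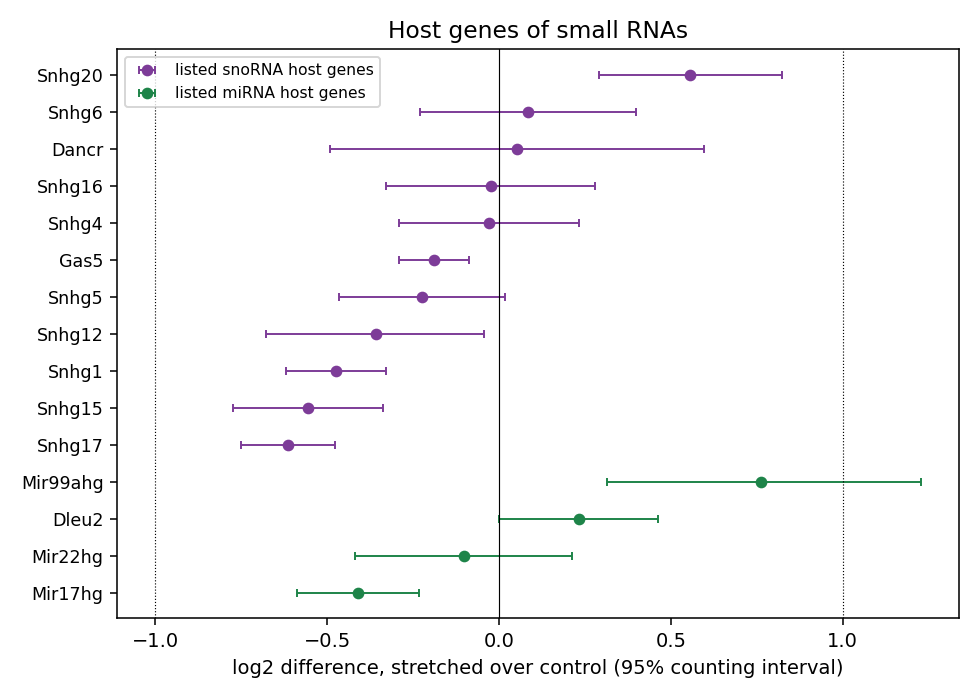
Log2 difference, stretched over control, with 95% counting intervals for the 11 snoRNA host genes (purple) and 4 miRNA host genes (green) of the gene lists that were among the 234 lncRNAs; dotted lines mark 2-fold. Other lncRNAs that hold a snoRNA or miRNA gene are not drawn. Of the listed snoRNA hosts 8 lie below 0, down to Snhg17 at -0.61, and the listed miRNA hosts run from 0.76 for Mir99ahg to -0.41 for Mir17hg.

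Few lncRNAs known from immune cells were among the 234. Ptgs2os2, called lincRNA-Cox2 for its place beside the gene of cyclooxygenase 2, had 58 counts in stretched and 75 in control (log2 difference -0.24, interval -0.77 to 0.27). Morrbid, which in mouse sets the lifespan of myeloid cells, had 83 in stretched and 68 in control (0.41, interval -0.07 to 0.90). Pvt1, the neighbour of Myc, had 151 in stretched and 131 in control (0.33, interval -0.02 to 0.68). All 3 intervals include 0, so no difference was detectable at this depth. Of 14 such genes found in the table, 10 were under 20 counts.

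The lncRNAs of X inactivation and imprinting gave small values. Kcnq1ot1, which silences an imprinted domain, had 166 counts in stretched and 119 in control (log2 difference 0.60, interval 0.26 to 0.96). Jpx, an activator of Xist, had 90 in stretched and 68 in control (0.53, interval 0.06 to 1.01), while Ftx, from the same X-linked region, had 181 in stretched and 223 in control (-0.17). Peg13, an imprinted transcript inside Trappc9, had 166 in stretched and 184 in control (-0.02). None of the 4 met the size rule. Airn, an imprinted silencing transcript below the count threshold, had 33 counts in stretched and 11 in control (1.67, interval 0.69 to 2.84) and did, at a depth where 12.3% of lncRNA genes were called higher.

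Among widely expressed lncRNAs, Norad had 2506 counts in stretched and 2761 in control (log2 difference -0.01, interval -0.09 to 0.06), one of the narrowest counting intervals of the set. That interval does not cover how reads were divided between Norad and its near-identical copy noted above. Firre, an X-linked lncRNA of nuclear organisation, had 1235 in stretched and 1409 in control (-0.06, interval -0.18 to 0.05). Oip5os1, also known as Cyrano, had 1236 in stretched and 982 in control (0.46, interval 0.34 to 0.58). Crnde had 87 in stretched and 105 in control (-0.14). Of these 4, Oip5os1 had an interval clear of 0. Tug1, which the table lists as protein-coding and which is therefore not among the 234, had 1632 in stretched and 2428 in control (-0.45, interval -0.54 to -0.36).

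The start regions were searched on both strands for 4 short motifs. For the lncRNAs the share is of the 127 genes, each counted if any of its start regions matched. For the background it is of all 32851 start regions, so genes with several regions had more chances to match. The AP-1 motif TGANTCA was in 9.45% of the lncRNA genes against 7.81% of all start regions, and the E-box CACGTG was in 13.4% against 7.15%. The hypoxia response core TACGTG was in 5.51% against 3.23%, and the TATA box TATAAA was in 7.87% against 13.6%. The background was not matched for base composition, with a median GC share of 57.3% in the lncRNA start regions against 52.7% in all. The part of composition in these shares was not tested. Among the 9 lncRNAs with a start region that met the size rule, TGANTCA matched 1 (4930471E19Rik), CACGTG matched 1 (1700001L05Rik), TATAAA matched 1 (Gm36486) and TACGTG matched none. A match describes these letters in these windows only.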

How the data were processed

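Poly(A) RNA of 1 stretched and 1 control culture was sequenced. The deposited gene and transcript tables give estimated counts and FPKM by the authors, per the file headers. The submitters' processing notes name StringTie and GRCm39; tool versions, aligner and strand setting were not given there. Log2 fold changes and adjusted p-values of the authors' deposited table were counted only.

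Counts were scaled with edgeR 4.0.16 TMM factors in R 4.3.3. Log2 differences used a prior of 0.5 counts, with exact conditional binomial 95% intervals. Genes just inside and outside the threshold, the 10 highest by FPKM, all members of the gene lists, all that met the size rule and their coding neighbours are named. Copies were sought with BLAST 2.17.0 in GENCODE transcripts. Names came from the deposited table (114), GENCODE identifiers (110) or descriptions (10). Coordinates are GRCm39. The script of the size rule was checked on simulated counts. Members and lists were chosen with earlier results of these data known. DESeq2 1.42.0 size factors were an alternative.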

Additional observations from a re-analysis of the deposited data

How the results depend on the processing

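The main counts were 11 higher and 5 lower lncRNAs, with a median log2 difference of 0.04. With FPKM plus 1 in place of counts, 2 were higher and 2 lower, and 13 of the 16 no longer met the rule. With FPKM plus 0.1, a setting that differs from it only in the value added, 13 of the 16 still met the rule. Summing overlapping same-strand genes gave 9 and 3, and leaving out same-strand overlaps gave 9 and 3. Leaving out any coding overlap gave 5 and 1. Membership from 50 counts gave 33 and 15, and from 200 counts 3 and 2. A 1.5-fold limit gave 31 and 24, and a 3-fold limit 3 and 1. Under DESeq2 size factors, library totals, TMM on genes with 20 or more counts, a prior of 5, rebuilt counts without rounding up, FPKM plus 0.1, and Neat1 and Malat1 kept, both counts stayed within 1.5 times. The genes were not all the same: with FPKM plus 0.1, 1700001L05Rik, 9830144P21Rik and Gm36995 dropped out, and Chaserr (-1.13) and Snhg20 (1.06) passed. Gm36995 also dropped out under library totals and under a prior of 5. Under DESeq2 size factors all 16 still met the rule, and 6 were lower in place of 5, with Cep83os added. The median lay between -0.0004 (DESeq2 size factors) and 0.06 under every setting run. Gm36995, lower by counts, was at 0.0205 as a locus sum. As locus sums, Gm42664, Gm42890 and Gm44597 no longer met the rule either. Gm10419 and Gm42893 met the size rule under all 8 alternatives run for single genes.

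The summed share was 0.734% of FPKM in stretched and 0.646% in control. From 50 counts it was 0.719% in stretched and 0.645% in control, from 200 counts 0.613% in stretched and 0.547% in control, and with Neat1 and Malat1 0.833% in stretched and 0.677% in control. Depth limits the report most for the 158 lncRNAs under 300 counts. No paired analysis was possible because each group had 1 library.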
